A study of Rattus norvegicus with 6 samples.

Results

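Calcineurin is the calcium-activated protein phosphatase of animal cells, and 10 genes of its signalling path were examined in cells cultured from the disc of the rat temporomandibular joint. These members were chosen by name: the regulator genes Rcan1, Rcan2 and Rcan3, the subunit genes Ppp3ca, Ppp3cb, Ppp3cc and Ppp3r1, and the transcription factor genes Nfatc1, Nfatc3 and Nfatc4. All 10 were among the 20675 genes of the deposited table, and all 10 passed the filter that left 12801 genes for testing. The disc is the fibrous pad between the bones of the jaw joint. Primary rat disc cells received either GSK101, an agonist of the calcium-permeable channel TRPV4, or the solvent DMSO at a matching concentration, each for 24 h, with 3 libraries a group. The first group is called GSK101 and the second Ctrl, as in the labels. The dose of GSK101, the strain, sex and age of the rats and the source of each replicate are not stated in the labels. What the p-values weigh is thus the spread among the 6 libraries, which may be technical.

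Calcineurin consists of a catalytic subunit, encoded by Ppp3ca, Ppp3cb or Ppp3cc, and a calcium-binding regulatory subunit, encoded in most tissues by Ppp3r1. When calcium rises, calmodulin binds the catalytic subunit and switches the phosphatase on. Active calcineurin removes phosphate groups from NFAT transcription factors, which then enter the nucleus, while kinases put the phosphate back and send them out again. RCAN proteins bind calcineurin and modulate it, and in human and mouse cells an internal promoter of RCAN1 is itself a well-known NFAT target.

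Promoter sequences were available in the RefSeq table for 6 of the 10 members, and the 4 shown are those of the genes whose levels changed. Each runs from 250 bases before to 50 bases after the annotated start, 5′ to 3′ on the gene's strand, on the GRCr8 build. Capitals mark matches on either strand to GGAAA, the core recognised by NFAT (TTTCC when read on the other strand), to the AP-1 motif TGANTCA and to the cAMP response element TGACGTCA. The last of these motifs was added after the sequences had been read.
Rcan1, chr11:45118187-45118486, minus strand: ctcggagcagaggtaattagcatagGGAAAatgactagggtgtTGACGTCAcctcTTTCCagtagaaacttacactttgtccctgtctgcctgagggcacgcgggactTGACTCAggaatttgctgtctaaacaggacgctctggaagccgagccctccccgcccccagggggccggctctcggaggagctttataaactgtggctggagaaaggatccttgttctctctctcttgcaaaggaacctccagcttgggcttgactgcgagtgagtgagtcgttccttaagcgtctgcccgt
Rcan2, chr9:24672140-24672439, minus strand: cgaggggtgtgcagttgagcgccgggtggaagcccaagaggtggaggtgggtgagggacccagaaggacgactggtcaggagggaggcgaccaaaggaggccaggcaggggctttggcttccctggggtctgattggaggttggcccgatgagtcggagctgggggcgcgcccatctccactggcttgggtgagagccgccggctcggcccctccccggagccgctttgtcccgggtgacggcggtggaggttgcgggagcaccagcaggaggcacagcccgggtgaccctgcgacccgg
Rcan3, chr5:152946955-152947254, minus strand: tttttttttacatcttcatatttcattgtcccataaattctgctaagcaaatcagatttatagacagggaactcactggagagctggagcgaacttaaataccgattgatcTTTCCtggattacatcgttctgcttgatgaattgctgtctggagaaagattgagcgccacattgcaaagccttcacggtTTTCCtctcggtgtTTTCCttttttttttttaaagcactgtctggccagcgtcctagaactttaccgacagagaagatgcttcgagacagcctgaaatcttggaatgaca
Ppp3ca, chr2:227839357-227839656, plus strand: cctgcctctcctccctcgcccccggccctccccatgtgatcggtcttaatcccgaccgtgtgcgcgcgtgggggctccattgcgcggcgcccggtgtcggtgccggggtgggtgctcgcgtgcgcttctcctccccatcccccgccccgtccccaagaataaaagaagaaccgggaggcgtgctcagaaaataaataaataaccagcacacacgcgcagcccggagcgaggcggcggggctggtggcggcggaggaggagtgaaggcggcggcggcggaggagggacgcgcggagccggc

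The Rcan1 window held 2 GGAAA matches, 1 TGANTCA and 1 TGACGTCA. The Rcan3 window held 3 GGAAA matches and neither of the other motifs. The windows of Rcan2 and Ppp3ca held none of the 3 motifs. Of the 33469 rat promoters in the table, 62.7% held GGAAA at least once and 28.5% at least 2 times, 7.33% held TGANTCA and 1.83% held TGACGTCA. Base composition differed too, with 70% G and C in the Rcan2 and Ppp3ca windows, 54.7% in Rcan1 and 40.7% in Rcan3. Of the other members in the table, Ppp3cb and Ppp3r1 had 1 GGAAA match each and neither of the other motifs. A match is a string of letters, not a shown binding site, and the RefSeq start need not be the one used in these cells.

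With GSK101, the calcineurin regulators Rcan1 and Rcan2 were lower and their paralog Rcan3 was higher, and among the subunits the catalytic gene Ppp3ca was higher. None of the other 3 subunit genes and none of the 3 NFAT genes passed the test. In all, 2 of 10 members rose and 2 fell in limma at a Benjamini-Hochberg adjusted p under 0.05. Over all tested genes 20.1% rose and 11.9% fell, 31.9% in either direction. The share of members that changed was thus near the background in this fit. By limma-voom on reads recovered from the deposited values, 4 members rose and 2 fell, against 23% and 12.8% of all tested genes (35.8% in either direction). At an unadjusted p under 0.05, 7 members passed, against 42.8% of all tested genes. The median log2 fold change was 0.02 over the members and 0.03 over all tested genes. For 7 of the 10 members, and for 47.3% of all tested genes, the RPKM values of one group lay wholly above those of the other. By limma-voom, unadjusted p and lack of overlap the share of members was above that of all tested genes. These differences were not tested. RPKM scales a gene's reads to its length in kilobases and to the reads counted to genes in the library. Fold changes are on the log2(RPKM + 0.5) scale, which understates changes of low genes.

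**Figure D1:**
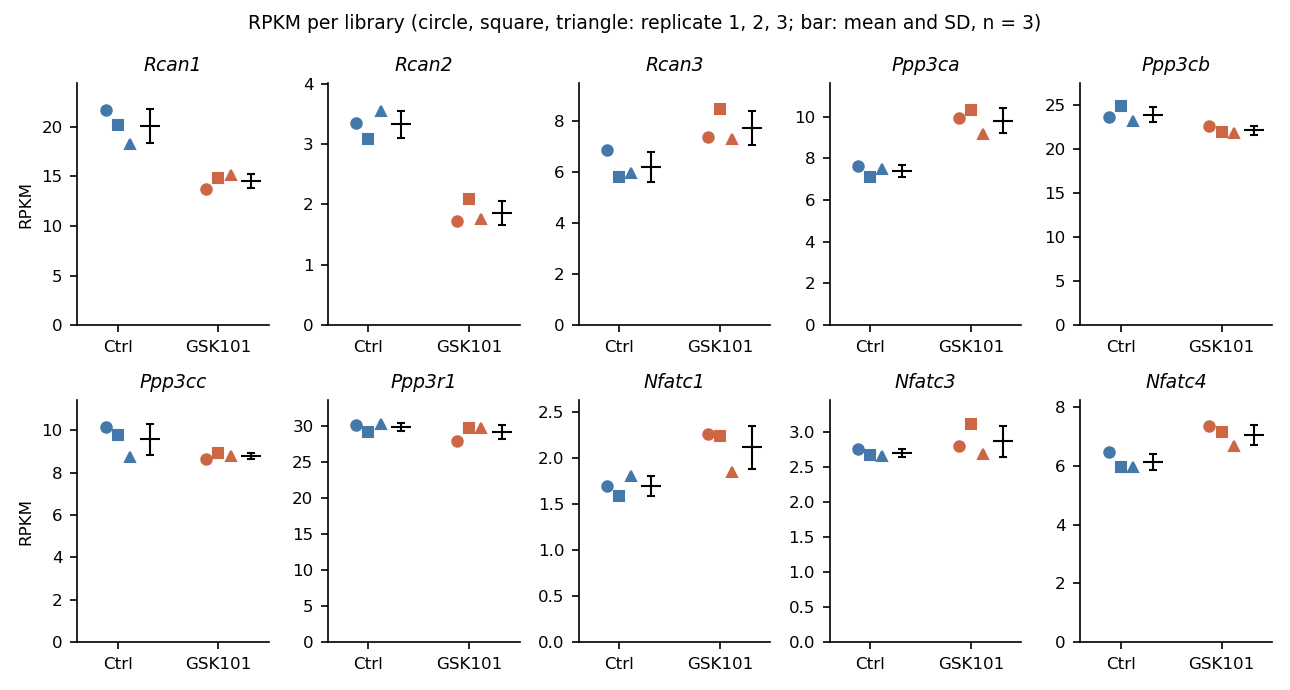
RPKM of the 10 members in each library, with the axis of every panel starting at 0; blue points are Ctrl and orange points GSK101 libraries, and black bars give the mean and SD of 3 libraries. The groups stand apart for 7 of the 10 members, and for 47.3% of all tested genes. Of the 7, Rcan1, Rcan2 and Ppp3cb are lower and Rcan3, Ppp3ca, Nfatc1 and Nfatc4 higher with GSK101. Ppp3cb, Nfatc1 and Nfatc4 did not pass the test.

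The libraries were alike in depth, at 43061102 to 45705238 counted reads. Of 9 fibroblast and fibrocartilage markers in the file, all 9 had a mean RPKM of at least 1, and their sum was 12240 to 13440 in Ctrl and 11160 to 12620 in GSK101 libraries. Single markers went both ways. Dcn, Lum and Pdgfra were higher and Pdgfrb, Vim and Thy1 lower with GSK101, all without overlap, while Col1a1, Col3a1 and Fn1 overlapped. Acan, which encodes aggrecan, lay between 29.8 and 37.6 RPKM, whereas Col2a1, the collagen II gene of hyaline cartilage, did not exceed 0.0389. Endothelial markers summed to 0.721 to 0.911 in Ctrl and 1.16 to 1.29 with GSK101, with 0 of 5 reaching a mean of 1. Macrophage and leukocyte markers summed to 6.59 to 9.59 and 5.85 to 9.16, with 2 of 5 reaching it. Schwann cell and neuron markers summed to 31.2 to 32.3 and 31.9 to 36.6 (4 of 6), and chondrocyte markers to 139 to 158 and 121 to 134 (3 of 7). Of the 4, S100b was higher and Tubb3 lower with GSK101 without overlap, and the rest overlapped. Most of the chondrocyte sum was Col11a1, at 103 to 117 RPKM in Ctrl and 86.8 to 98.0 RPKM with GSK101. Sox9 was lower too without overlap, and Acan overlapped.

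Rcan1 encodes the best studied of the regulators, a protein that inhibits calcineurin when abundant. Its RPKM was 21.7, 20.2 and 18.3 in Ctrl replicates 1, 2 and 3 and 13.8, 14.8 and 15.1 in GSK101 replicates 1, 2 and 3. The lowest Ctrl library lay above the highest GSK101 library. The mean fell from 20.1 ± 1.71 to 14.6 ± 0.71 (SD, n = 3). On the log2 scale it fell by 0.45 ± 0.07 (SE), with adjusted p = 0.00285 in limma. The call held in all 17 alternatives, with log2 fold changes from -0.51 to -0.39. The row rests on 1321 to 2138 reads per library. In the file, Rcan1 occupies chromosome 11 from 32539683 to 32550539 (Rnor_6.0, minus strand), with 4 exons in 10.9 kb, each listed once, and 1 value for the gene. Whether these exons cover the transcripts from all promoters is not shown, and isoforms cannot be told apart by 1 value.

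Rcan2, a calcineurin regulator of muscle and brain, had the largest change of the members. Its RPKM was 3.34, 3.09 and 3.54 in the Ctrl libraries and 1.72, 2.09 and 1.76 in the GSK101 libraries. Every Ctrl library was above every GSK101 library, and GSK101 replicate 2 was the nearest to them. The mean fell from 3.32 ± 0.23 to 1.86 ± 0.20, and the Ctrl mean was 1.79-fold the GSK101 mean. The log2 difference was -0.70 ± 0.09 (SE), with adjusted p = 0.0013 in limma, and 3.77% of all tested genes had a larger change in size. All 17 alternatives kept the call, between -0.84 and -0.60. Rcan2 occupies chromosome 9 from 19518558 to 19749145 (minus strand), with 6 separate exons.

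Rcan3, the third regulator gene, went the other way, with a call that was less secure. Its RPKM was 6.86, 5.79 and 5.95 in the Ctrl libraries and 7.39, 8.48 and 7.30 in the GSK101 libraries. The groups did not overlap, but Ctrl replicate 1 lay close to GSK101 replicates 1 and 3. The mean rose from 6.20 ± 0.58 to 7.72 ± 0.66, 1.25-fold, or by 0.30 ± 0.08 (SE) on the log2 scale, with adjusted p = 0.0307 in limma. The call was lost in 7 alternatives. Its adjusted p was 0.0946 without Ctrl replicate 2, 0.083 without Ctrl replicate 3, 0.0569 without GSK101 replicate 1 and 0.098 without GSK101 replicate 2, and 0.0513 to 0.0936 with median-ratio scaling, quantile normalization or no filter. Over all alternatives the adjusted p ranged from 0.0174 to 0.098. The row has 277 to 418 reads per library, and 44 of its 1088 bases overlap an unnamed gene on the same strand (AABR07050156.1, 75 to 126 reads), so its level is less certain. Rcan3 occupies chromosome 5 from 153773663 to 153790157 (minus strand).

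Within the regulator family the balance therefore differed between the groups, which does not depend on scaling between libraries. Rcan3 made up 21.5%, 19.9% and 21.4% of the summed RPKM of the 3 genes in the Ctrl libraries and 32.3%, 33.4% and 30.2% in the GSK101 libraries. The share of Rcan1 was 67.8 ± 1.83% and 60.3 ± 2.09% (SD, n = 3), and that of Rcan2 11.3 ± 1.27% and 7.68 ± 0.49%. None of the 3 shares overlapped between the groups, though as parts of the same sum they are not independent. The sum itself was 27.8 to 31.9 RPKM in Ctrl and 22.9 to 25.4 RPKM with GSK101. No p is given for shares and sums, because the members were chosen with their results known.

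The summed level of smooth muscle and pericyte markers was lower with GSK101, like Rcan1 and Rcan2, but its markers did not all go that way. The 6 markers, of which 4 had a mean RPKM of at least 1, summed to 5302 to 5506 RPKM in Ctrl and 2902 to 3168 RPKM with GSK101. Nearly all of the sum was Acta2, which encodes smooth muscle actin, at 4867 to 5066 and 2627 to 2866 RPKM, and Myh11 and Mcam were also lower in every GSK101 library than in any Ctrl library. Cspg4, the pericyte gene among the 4, overlapped, with 11.2, 10.1 and 8.80 RPKM in the Ctrl libraries and 11.5, 12.1 and 11.01 RPKM in the GSK101 libraries. Rgs5 and Des, which mark pericytes and muscle, stayed under 1 RPKM in all libraries and were not lower with GSK101, at 0 to 0.222 and 0.189 to 0.227 RPKM for Rgs5 and at 0.503 to 0.815 and 0.751 to 0.9804 RPKM for Des. Skeletal muscle markers summed to 18.0 to 19.8 and 13.2 to 15.4 RPKM, 3 of 6 with a mean of at least 1. Of these 3, Acta1 and Myh4 were lower without overlap and Tnnt3 overlapped, at 3.86 to 4.91 and 4.35 to 6.03 RPKM, while Ckm, the muscle creatine kinase gene, was at most 0.063. The part of these markers in the changes of Rcan1 and Rcan2 was not tested. Fewer cells of a type and less RNA per cell cannot be told apart in such bulk samples.

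**Figure D2:**
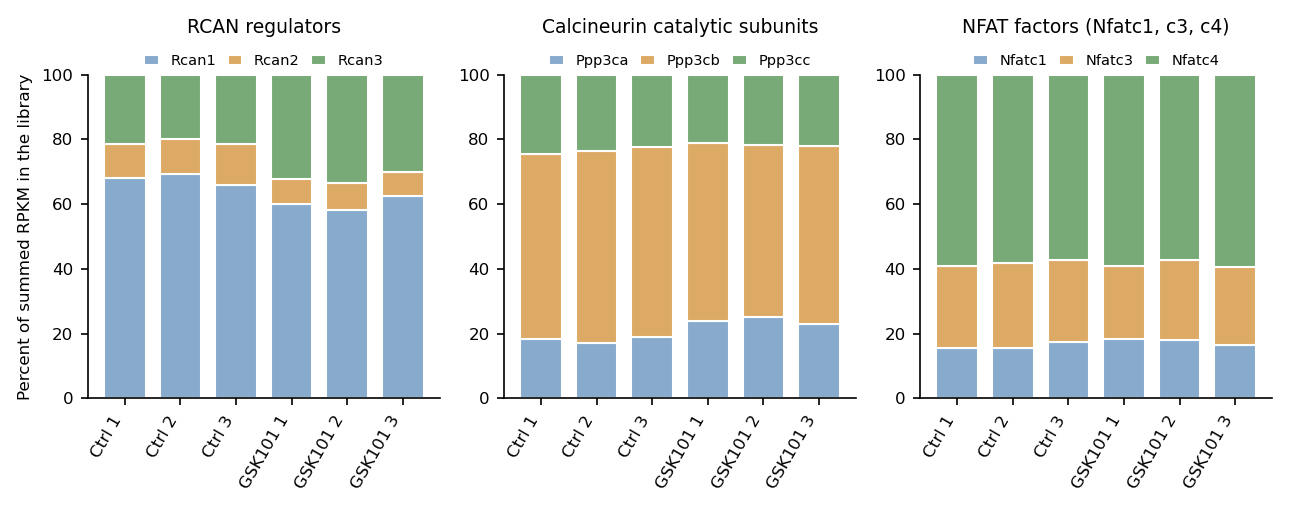
Share of each paralog in the summed RPKM of its family, in percent, as stacked bars for the 6 libraries; the 3 panels are the RCAN regulators, the calcineurin catalytic subunits and the NFAT factors. Rcan3 takes 19.9% to 21.5% in Ctrl and 30.2% to 33.4% in GSK101 libraries, Ppp3ca 17.0% to 19.0% and 23.1% to 25.1%, and the NFAT shares differ less.

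Ppp3ca encodes the alpha isoform of the catalytic subunit, the major one in brain. Its RPKM was 7.64, 7.09 and 7.48 in the Ctrl libraries and 9.91, 10.3 and 9.18 in the GSK101 libraries. Every GSK101 library was above every Ctrl library. The mean rose from 7.40 ± 0.28 to 9.81 ± 0.58, 1.32-fold, or by 0.38 ± 0.06 (SE) on the log2 scale, with adjusted p = 0.00319 in limma, on 725 to 1088 reads per library. The call held in all 17 alternatives, between 0.32 and 0.43. The gene occupies chromosome 2 from 241909832 to 242184854 (plus strand), with 14 exons.

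The beta and gamma catalytic genes had lower means with GSK101 and did not pass. Ppp3cb, the most abundant of the 3 in these cells, had 23.6, 24.8 and 23.2 RPKM in the Ctrl libraries and 22.7, 21.9 and 21.7 RPKM in the GSK101 libraries. The groups did not overlap, yet the log2 difference was -0.11 ± 0.05 (SE), with adjusted p = 0.107 in limma. Scaling decided this call, as Ppp3cb was lower by 0.15 with median-ratio scaling (adjusted p = 0.0351), by 0.16 with quantile normalization (adjusted p = 0.0261) and by 0.14 with the gene length trend removed (adjusted p = 0.0416). Over all 17 alternatives its adjusted p ranged from 0.0261 to 0.318. Ppp3cc, known for its high expression in testis, had 10.2, 9.77 and 8.75 RPKM in the Ctrl libraries and 8.66, 8.92 and 8.80 RPKM in the GSK101 libraries. Ctrl replicate 3 lay among the GSK101 values. Its log2 fold change was -0.11 with a 95% interval from -0.26 to 0.04 (adjusted p = 0.224 in limma).

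The order of the catalytic genes by RPKM, which is per length, differed between the groups. Ppp3cc was above Ppp3ca in all 3 Ctrl libraries and below it in all 3 GSK101 libraries. Ppp3ca made up 18.1 ± 1.02% of the summed catalytic RPKM in Ctrl and 24.1 ± 1.01% with GSK101 (SD, n = 3), while Ppp3cb went from 58.5 ± 1.29% to 54.3 ± 0.96% and Ppp3cc from 23.4 ± 1.16% to 21.6 ± 0.58%. None of these shares overlapped between the groups, but for Ppp3cc Ctrl replicate 3 (22.2%) and GSK101 replicate 3 (22.15%) nearly met. As parts of the same sum the shares are not independent of each other. The sum of the 3 genes overlapped, at 39.4 to 41.7 RPKM in Ctrl and 39.7 to 41.2 with GSK101. The 3 genes are related in sequence, and RPKM values do not show how many reads they share.

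Ppp3r1, the gene of the regulatory subunit, was the most abundant member and had the smallest change. Its RPKM was 30.0, 29.1 and 30.2 in the Ctrl libraries and 27.9, 29.7 and 29.7 in the GSK101 libraries. The groups overlapped, and the log2 fold change of -0.03 had a 95% interval from -0.14 to 0.07 (adjusted p = 0.617 in limma). After rescaling to TPM the log2 fold change was 0.00467, so no direction can be given. Of its 3329 bases 13.9% overlap an unnamed gene on the same strand (Rn50_14_1002.4, 4247 to 4884 reads), which makes its level less certain. Relative to the catalytic genes, the log2 ratio of Ppp3r1 RPKM to their sum was -0.456 ± 0.066 in Ctrl and -0.484 ± 0.072 with GSK101, with overlapping values. The log2 ratio of the RCAN sum to the catalytic sum was -0.467 ± 0.078 and -0.754 ± 0.084, without overlap.

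**Figure D3:**
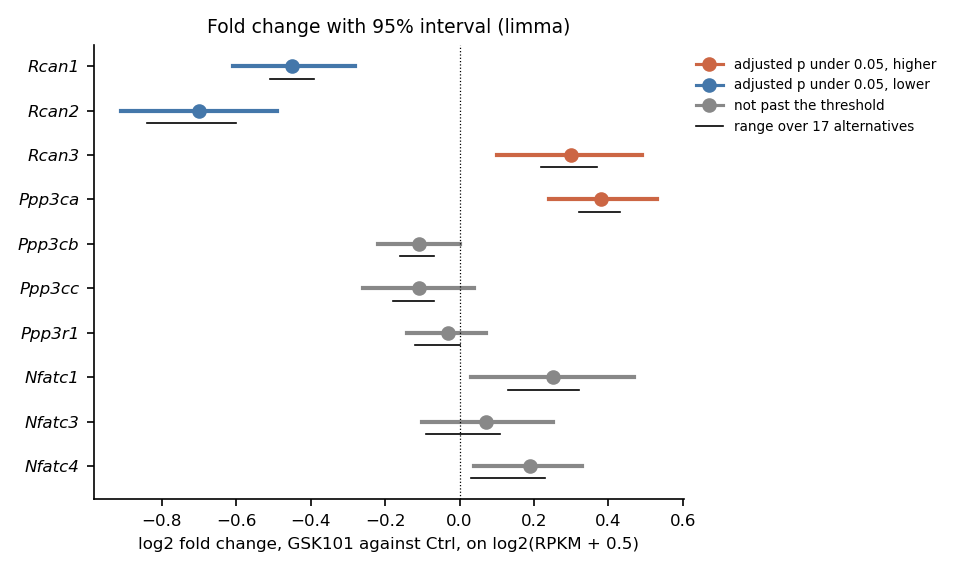
Log2 fold change of each member, GSK101 against Ctrl, on the log2(RPKM + 0.5) scale (points) with the limma 95% interval (thick lines) and the range over 17 alternatives (thin black lines below). Rcan1 and Rcan2 lie below 0 and Ppp3ca above 0 in every alternative and with every interval, and Rcan3 keeps its direction but not always its call, while Nfatc3 crosses 0 with quantile normalization and the gene length trend removed and Ppp3r1 after rescaling to TPM.

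The NFAT genes encode the transcription factors that calcineurin activates, and the calls for all 3 missed the threshold in limma. At an unadjusted p under 0.05, 2 of the 3 passed, and 2 were higher by limma-voom. Over all tested genes 42.8% passed at that p and 23% were higher by limma-voom. Nfatc4, the most abundant, had 6.46, 5.96 and 5.96 RPKM in the Ctrl libraries and 7.34, 7.15 and 6.67 RPKM in the GSK101 libraries. The groups did not overlap, although GSK101 replicate 3 lay near Ctrl replicate 1. Its mean went from 6.12 ± 0.29 to 7.05 ± 0.34, a log2 difference of 0.19 ± 0.06 (SE) whose adjusted p of 0.0519 in limma lay at the threshold. Its adjusted p was 0.0452 without Ctrl replicate 1, 0.0494 without GSK101 replicate 3 and 0.0157 with limma-voom, and over all alternatives 0.0157 to 0.74.

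Nfatc1, the NFAT factor of osteoclast formation and heart valve development, had 1.70, 1.60 and 1.81 RPKM in the Ctrl libraries and 2.26, 2.25 and 1.85 RPKM in the GSK101 libraries. GSK101 replicate 3 lay close to Ctrl replicate 3, and the other GSK101 libraries stood well above. The log2 fold change was 0.25 with a 95% interval from 0.03 to 0.47 (adjusted p = 0.0846 in limma, and 0.0266 to 0.312 over the alternatives). Without GSK101 replicate 3 it was 0.32 with adjusted p = 0.0434, and with limma-voom 0.31 with adjusted p = 0.0266. Nfatc3, an NFAT factor of many tissues, had 2.77, 2.68 and 2.67 RPKM in the Ctrl libraries and 2.81, 3.121 and 2.69 RPKM in the GSK101 libraries. The groups overlapped. Its log2 fold change was 0.07 (95% interval -0.10 to 0.25, adjusted p = 0.508 in limma), and it was -0.00678 with quantile normalization and -0.09 with the gene length trend removed. Of its 6120 bases 9.67% overlap Esrp2 on the opposite strand, which had 81 to 123 reads per library.

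The 3 NFAT genes summed to 10.2 to 10.9 RPKM in Ctrl and 11.2 to 12.5 RPKM with GSK101. Nfatc4 made up 58.1 ± 1.002% of the sum in Ctrl and 58.6 ± 1.28% with GSK101, and Nfatc1 16.2 ± 1.02% and 17.6 ± 0.93%, with overlap in both cases, while Nfatc3 made up 25.7 ± 0.44% and 23.9 ± 1.17%, without overlap. Long genes were higher with GSK101 over the whole table, with a median log2 fold change of 0.10 in the longest of 3 equal length classes of tested genes and -0.02 in the shortest. All 3 NFAT genes, with 6120 bases for Nfatc3, 6040 for Nfatc4 and 4405 for Nfatc1, fall in the longest class. With the length trend removed the log2 fold change was 0.03 for Nfatc4 (adjusted p = 0.74 in limma) and 0.13 for Nfatc1 (adjusted p = 0.312), both smaller than as deposited. Rcan2, with 3625 bases, and Ppp3r1, with 3329, are in that class too, and there their log2 fold changes were -0.80 (adjusted p = 0.000711) and -0.12 (adjusted p = 0.0798). The part of gene length in these changes was not tested further. On the Rnor_6.0 build Nfatc4 lies on chromosome 15 from 34493138 to 34504326, Nfatc1 on chromosome 18 from 77203525 to 77322690 and Nfatc3 on chromosome 19 from 38039564 to 38114003. Ppp3cb and Ppp3cc are on chromosome 15 too, from 4209703 to 4236895 and from 51896615 to 51967897, and Ppp3r1 is on chromosome 14 from 100311173 to 100360879.

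By RPKM the Ctrl means ran from Ppp3r1 at 29.8, Ppp3cb at 23.9 and Rcan1 at 20.1 down to Ppp3cc at 9.56, Ppp3ca at 7.40, Rcan3 at 6.20, Nfatc4 at 6.12, Rcan2 at 3.32, Nfatc3 at 2.70 and Nfatc1 at 1.70. Only Rcan3 and Nfatc4 were neighbours whose Ctrl values overlapped. With GSK101 the first 3 kept their places, and then came Ppp3ca at 9.81, Ppp3cc at 8.79, Rcan3 at 7.72, Nfatc4 at 7.05, Nfatc3 at 2.87, Nfatc1 at 2.12 and Rcan2 at 1.86. There Rcan3 and Nfatc4 overlapped again, as did Nfatc1 and Rcan2, while Rcan2 was below Nfatc3 in every GSK101 library and above it in every Ctrl library. Nfatc2, the main NFAT factor of T cells and no member, was listed at 0 to 0.0477 RPKM on 0 to 8 reads per library, below the filter. T cell markers summed to 0.901 to 1.19 RPKM in Ctrl and 0.989 to 1.19 RPKM with GSK101, nearly all of it Cd4, with Cd3e and Cd3g at 0 in 5 of 6 libraries each.

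Genes around calcineurin and NFAT were taken from 5 lists of known partners, kinases, substrates and targets, 65 genes in all, of which 56 were in the file and 43 were tested. Of these 43, 10 rose and 4 fell, and 18 passed at an unadjusted p under 0.05, shares near those over all tested genes (31.9% in either direction, and 42.8% at the unadjusted p). Their median change was 0.03 on the log2 scale, as it was over all tested genes. With limma-voom 12 rose and 4 fell, against 23% and 12.8% of all tested genes. Without GSK101 replicate 1, the library whose omission lowered the count of rising genes most, 5 rose. No p is given for a list.

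The first list holds the calcium sensors and proteins that bind calcineurin, and none of its 8 tested genes passed in limma, with 2 at an unadjusted p under 0.05 and 1 higher by limma-voom. The shares over all tested genes were 31.9%, 42.8% and 23%. Ppia encodes cyclophilin A, the target through which cyclosporin inhibits calcineurin, and it had 2478 ± 174 RPKM in Ctrl and 2279 ± 128 RPKM with GSK101 (SD, n = 3). Calm2, a calmodulin gene, had 1594 ± 19.9 and 1614 ± 86.6 RPKM. Its log2 fold change of 0.02 had adjusted p = 0.835 in limma. These 2 genes were named for their high level, not for a change.

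Among NFAT kinases and genes of NFAT traffic, 4 of 17 tested genes rose and 2 fell, against 20.1% and 11.9% of all tested genes. Xpo1, the export receptor that carries NFAT and many other proteins out of the nucleus, rose from 34.4 ± 1.71 to 54.5 ± 0.42 RPKM, 1.59-fold (adjusted p = 0.000122 in limma). Kpnb1, which encodes the import receptor importin beta, rose from 96.5 ± 5.48 to 122 ± 3.56 RPKM, 1.26-fold (adjusted p = 0.00257), a log2 fold change that went from 0.33 to 0.18 with the gene length trend removed (adjusted p = 0.0288). Csnk1e, a casein kinase 1 gene, fell from 13.6 ± 0.41 to 10.8 ± 0.40 RPKM, by 0.32 on the log2 scale (adjusted p = 0.00295). Homer2, whose protein binds NFAT in T cells, rose from 10.4 ± 0.24 to 12.1 ± 0.37 RPKM (adjusted p = 0.0156, and 0.0671 without GSK101 replicate 1, the highest over the alternatives, of which the lowest was 0.0129). The calls of Xpo1, Kpnb1 and Csnk1e held in all 17 alternatives. Homer3, a paralog of Homer2, fell from 31.4 ± 0.75 to 27.6 ± 1.24 RPKM (adjusted p = 0.0233 in limma), a call lost in 4 alternatives. Csnk1a1, another casein kinase 1 gene, rose from 49.4 ± 1.175 to 54.0 ± 0.23 RPKM (adjusted p = 0.0361), a call lost in 10. The count of those that fell was 1 without Ctrl replicate 1, Ctrl replicate 2 or GSK101 replicate 3, and the count of those that rose was 2 without GSK101 replicate 1.

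**Figure D4:**
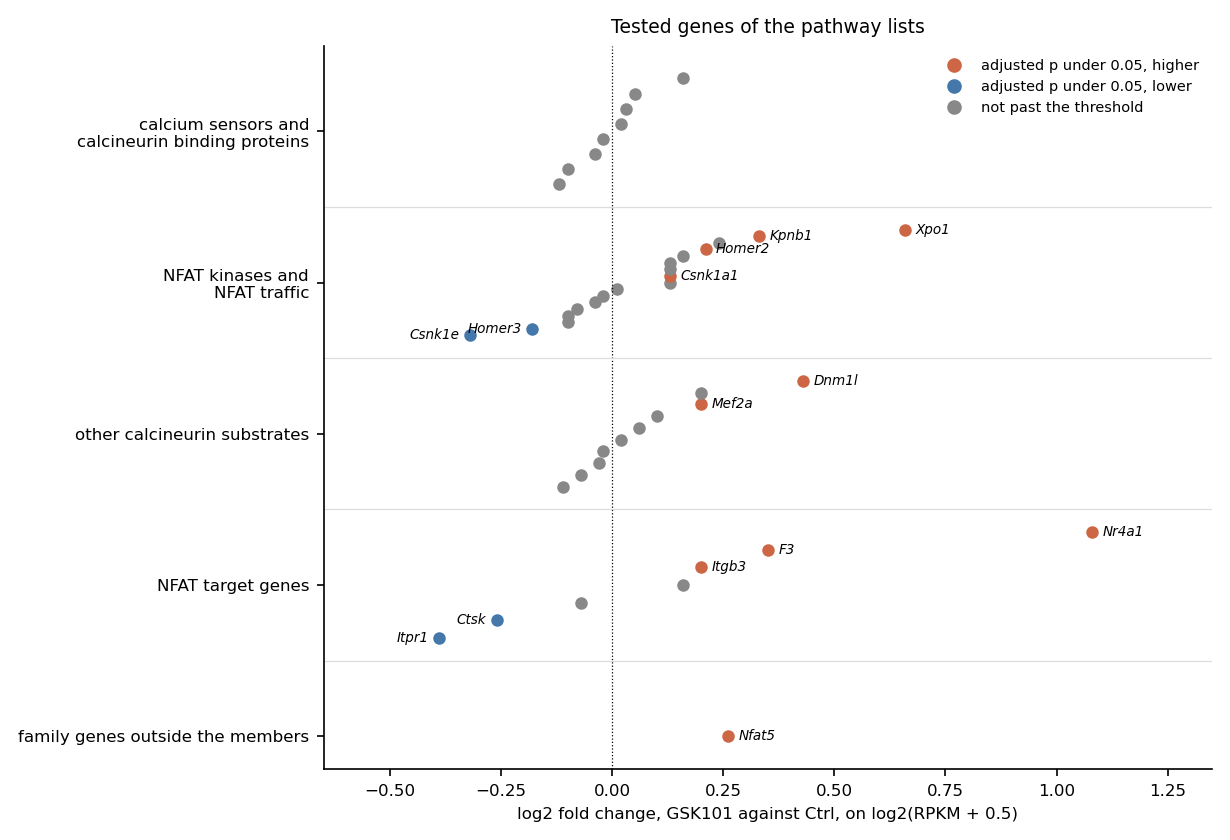
Log2 fold change, GSK101 against Ctrl on the log2(RPKM + 0.5) scale, of the 43 tested genes of 5 pathway lists, 1 point a gene and ordered by value within each list; coloured and named points passed an adjusted p under 0.05 in limma. Of the 43 genes 10 lie right of 0 in orange and 4 left of 0 in blue. Over all tested genes 20.1% rose and 11.9% fell. Nfat5 turned from 0.26 to -0.03 with the gene length trend removed.

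Of 10 tested genes for other calcineurin substrates 2 rose and none fell, with 3 at an unadjusted p under 0.05 and 3 higher by limma-voom. Over all tested genes 20.1% rose and 11.9% fell, 42.8% passed at the unadjusted p and 23% were higher by limma-voom. Dnm1l, the dynamin of mitochondrial fission, rose from 9.20 ± 1.08 to 12.5 ± 0.16 RPKM, 1.36-fold (adjusted p = 0.00559 in limma). Mef2a, a transcription factor gene of muscle and other tissues, rose from 9.71 ± 0.44 to 11.2 ± 0.38 RPKM, 1.16-fold (adjusted p = 0.0258). The Mef2a call was lost in 7 alternatives. Its adjusted p was 0.068 without Ctrl replicate 1, 0.0643 without Ctrl replicate 2, 0.0743 without GSK101 replicate 1 and 0.0923 without GSK101 replicate 2, and from 0.011 to 0.15 over all alternatives, the highest with the gene length trend removed, where the log2 fold change went from 0.20 to 0.11.

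Of 22 known NFAT target genes 15 were in the file and 7 were tested, of which 3 rose and 2 fell. Over all tested genes 20.1% rose and 11.9% fell. With 7 genes, listed with earlier results known, the difference from these shares was not tested. Nr4a1, an orphan nuclear receptor gene, went from 2.15 ± 0.38 to 5.13 ± 1.02 RPKM, with a log2 fold change of 1.08 (adjusted p = 0.00202 in limma). F3, which encodes the clotting initiator tissue factor, rose from 99.2 ± 8.51 to 127 ± 9.14 RPKM (adjusted p = 0.00989). Itpr1, which encodes a calcium release channel of the endoplasmic reticulum, fell from 19.1 ± 1.17 to 14.4 ± 0.50 RPKM (adjusted p = 0.00224), by 0.39 on the log2 scale and by 0.64 with the gene length trend removed, and 1.46% of its length overlaps an unnamed gene on the opposite strand (AABR07061707.1). Ctsk, the gene of the bone and matrix protease cathepsin K, fell from 58.8 ± 1.97 to 49.05 ± 2.91 RPKM (adjusted p = 0.00834). Ptgs2, the cyclooxygenase 2 gene, was chosen here after its values were seen and did not pass, at 2.89 ± 0.19 and 3.30 ± 0.35 RPKM (adjusted p = 0.214). Most of these targets were described in lymphocytes, bone or heart, and 8 of the 15 in the file were below the filter.

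Of the family genes outside the members Nfat5 was the single tested one. Nfat5 encodes the factor that responds to osmotic stress and lacks the calcineurin docking region of the other NFAT proteins. It rose from 2.77 ± 0.19 to 3.42 ± 0.14 RPKM, 1.24-fold (adjusted p = 0.0298 in limma), and its 13565 bases make it one of the longer genes. The call was lost in 8 alternatives, among them those without Ctrl replicate 1 or 2 and GSK101 replicate 1 or 2 (adjusted p 0.0755 to 0.0948), and its adjusted p ranged from 0.0013 to 0.82. With the gene length trend removed its log2 fold change was -0.03 (adjusted p = 0.82).

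The genes most like Rcan2 over the 6 libraries, by Pearson correlation of log2(RPKM + 0.5), were Klf15, Mavs, AABR07064011.1, Ak3 and Rbms1, with r from 0.9962 to 0.9996. Their log2 fold changes ran from -0.88 for Klf15 to -0.09 for Rbms1. For Ppp3ca they were Elk4, Pdgfra, Trio, Itpr3 and Synpo, with r from 0.9954 to 0.9989 and log2 fold changes from 0.27 to 0.93. These are descriptions without a test. The libraries form 2 groups of 3, which alone gives high values. Among tested genes outside the members, 378 (2.96%) had r over 0.95 with Rcan2 and 601 (4.7%) with Ppp3ca.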

How the data were processed

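RNA sequencing of primary rat disc cells gave 1 table with 6 libraries, 3 a group. The authors deposited RPKM values with gene lengths and exon positions. Per the submitters' processing notes, the tools included STAR 2.5.3a and featureCounts (Subread 1.5.1), with Trimmomatic 0.36 and edgeR 3.12.1 also listed, on the Rnor_6.0 build; the notes as used here give no roles. Per the labels' protocols the stranded kit adds molecular identifiers. Whether duplicates were collapsed, strand was used in counting or multi-mapping reads were counted remains not given in the sources used here. RPKM times length gave whole reads, within 0.01, for 100% of values. Even numbers made up 71.3% to 74.7% of the genes that had 1 to 10 reads, and each mate may thus have counted as a read.

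Values were tested as log2(RPKM + 0.5) in limma 3.58.1 (R 4.3.3) with a mean-variance trend and group as the only term. Genes had to reach 0.5 RPKM in 3 or more libraries, and p-values were adjusted over all of them. All adjusted p-values come from limma. The procedure was tested on simulated data with far fewer changed genes than were called here. Simulated log2 changes were 0.5 or larger in size, so the recovery of smaller ones was not tested. Alternatives were 2 pseudocounts, 2 filters, 4 scalings, no trend, limma-voom, the replicate block and leaving out each library. Sums and ratios of families use RPKM and carry no p. The exact permutation test planned for them was run, but with 3 libraries a group it cannot give a p under 0.1.

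The members and lists were chosen with earlier results of these data known. The text names all members, from each list up to 4 called genes with the smallest adjusted p (or the 2 with the highest level where fewer than 2 were called), the 5 genes most like the most significant lower and higher member, and genes overlapping a member's exons. Homer3 and Csnk1a1 were added because they went against a named related gene.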

Additional observations from a re-analysis of the deposited data

How the results depend on the processing

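Of 170 comparisons of a member's log2 fold change with an alternative, 150 kept direction and side of the threshold, 7 lost a call, 10 gained one and 3 turned. Members called higher, 2 in the main setting, were 1 with no filter, median-ratio scaling or quantile normalization, 4 with limma-voom and 1 to 4 with a library left out (1 without Ctrl replicate 2 or 3 or GSK101 replicate 1 or 2, 4 without GSK101 replicate 3). Members called lower, 2 in the main setting, were 3 with median-ratio scaling, quantile normalization or the gene length trend removed, Ppp3cb being the third, and 2 in the other 14 alternatives. Pathway genes called higher, 10 in the main setting, were 6 with quantile normalization or the gene length trend removed and 5 to 8 with a library left out, and those called lower, 4, were 7 with the length trend removed. The log2 fold changes that turned were those of Ppp3r1 (0.00467 with TPM), Nfatc3 (-0.00678 with quantile normalization, -0.0897 with the length trend removed), Nfat5 (-0.0252 with the length trend removed) and Calm2 (-0.0236 with median-ratio scaling, -0.0274 with the length trend removed, -0.0249 to 0.0511 with a library left out). With a library left out, the GSK101 minus Ctrl difference ran from -0.864 to 0.332 RPKM for the catalytic sum, from -0.0903 to 1.16 percentage points for the Nfatc4 share and from -0.0593 to 0.0111 for the log2 ratio of Ppp3r1 to that sum. Of calls over all genes, 62.9% were higher as deposited, 72.4% with TPM, 52.5% with median-ratio scaling, 48.1% with quantile normalization and 46.8% with the length trend removed.

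Same-numbered libraries did not deviate together (r = 0.0544, -0.0631 and 0.0519 for numbers 1, 2 and 3). Whether they share a source is not stated, and such correlations with 3 libraries a group cannot decide it. With the replicate block 2 members rose and 2 fell, 7 pathway genes rose and 4 fell, and over all genes 2508 rose and 1437 fell. Nfatc2 and the 8 targets below the filter were too low to be tested.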
